A study of Mus musculus with 12 samples.

Results

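RNA of the mouse microglial line BV2 was compared between cells carrying an shRNA against Anxa2 (shAnxa2) and cells carrying a control shRNA (shCtrl), over all 12 libraries and averaged over the treatment. BV2 is an immortalized line that serves as a model of microglia, the resident macrophages of the brain. Each line was sequenced as 3 libraries of untreated cells (named CTRL) and 3 libraries after OGD/R (named OGDR), oxygen-glucose deprivation followed by reoxygenation, a culture model of ischemia and reperfusion. By the labels, deprivation lasted 4 h and reoxygenation 12 h. The shRNAs came from a lentiviral vector, and all cells of both lines carry one. Each shRNA is represented by 1 line, so an effect of the shRNA and any other difference between the lines cannot be told apart. A gene was called separated when all 6 libraries of 1 line lay above all 6 libraries of the other, a property that does not change if the treatment names are exchanged within a line. This held for 1184 (10.2%) of 11626 genes tested, of 21834 protein-coding genes in the table.

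Annexin A2, the product of Anxa2, is a calcium-dependent protein that binds phospholipids and actin, and it works at membranes together with S100A10. The pair binds plasminogen and its activator at the cell surface, and the scaffold protein AHNAK belongs to the same submembrane complex. Macrophages and microglia clear debris with scavenger receptors, Fc receptors and complement, of which C1q is the recognition unit of the classical pathway, and they signal damage through NF-κB, which drives cytokine, chemokine and adhesion genes together with its own inhibitors.

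Total counts ranged from 19521877 to 27288843 per library, with a median of 25681521.5 over the shCtrl libraries and 20755268.5 over the shAnxa2 libraries. The lineage markers Spi1 (286.3 to 334.2 CPM, library counts scaled to a fixed total), Csf1r (393.9 to 587.9 CPM) and Cd68 (336 to 458.8 CPM) were present in every library, whereas P2ry12, a marker of resting microglia, stayed between 1.37 and 2.66 CPM, and Sall1 was at 0 counts throughout. Cx3cr1, another microglial marker, was low too (2.61 to 6.45 CPM), as was Aif1. The summed level of 7 oligodendrocyte markers was 4.65 to 6.81 CPM in shCtrl and 4.16 to 6.32 CPM in shAnxa2, mostly from Mbp, with Mog and Olig1 at 0. The summed astrocyte markers (7 genes), neuron markers (7 genes) and fibroblast and endothelial markers (8 genes) stayed at or under 2.19 CPM in every library, with Aqp4, Snap25 and Dcn at 0. In a bulk library, a smaller share of cells with a transcript and less of it in each cell cannot be told apart. One property of the treatment names precedes all results. The libraries named OGDR and CTRL differed in 63.4% of the genes tested within shCtrl and in 55.0% within shAnxa2. Of 5239 genes that differed within both lines, 5165 (98.6%) differed in opposite directions in the lines. How this came about was not tested. The averaged line difference is the same whichever way the names run, whereas the differences under each name are not, and the latter are given here by name only.

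Averaged over the treatment, 53.0% of the genes tested differed between the lines, of which 3244 genes were higher (27.9% of the genes tested) and 2913 were lower (25.1%) in shAnxa2 at an adjusted p under 0.05 (edgeR quasi-likelihood test, Benjamini-Hochberg). A model with line as the only term counts the difference between treatment names as spread. In it, 864 of the 11626 genes tested were higher and 1027 were lower. The shares and counts over all genes tested are the background for the gene lists below. In the averaged test with a log2 fold change of at least 1 as well, 113 genes were higher (0.972%) and 140 were lower (1.20%). The separated genes comprised 510 genes higher (4.39% of those tested) and 674 lower (5.80%) in shAnxa2. Most of their differences were small. The median absolute log2 fold change was 0.40, 558 genes differed by less than 1.3-fold, 333 by at least 1.5-fold and 134 by at least 2-fold, of which 58 (0.499% of the genes tested) were higher and 76 (0.654%) lower in shAnxa2. The gap between the lines, taken as the lowest log2(CPM + 0.1) of the higher line minus the highest of the lower line, was under 0.1 for 594 genes and at least 1 for 26. In 18 separated genes every library of the lower line was under 0.5 CPM. Among 4572 genes too low to be tested, a further 15 were separated. At the edge of the rule among genes of at least 1 CPM and 2-fold, Folr1, a folate receptor, and Lhx1, a homeobox factor, lay just inside with gaps of 0.01 and 0.02. Cd200r2 and Zbtb46 lay just outside, each with a gap of -0.04.

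The separated genes kept their direction under both treatment names by the way they were chosen. Of all genes tested, 59.2% passed the test under CTRL and 67.9% under OGDR. Under both names, 983 of the separated genes passed it, all with the same sign. Of the 5121 genes that passed under both names among all genes tested, 1229 had the same sign and 3892 the opposite sign. The size of the difference still varied, since it differed between the names for 563 separated genes (47.6%). Over all genes tested the share was 70.0%. The rule also limits how far the differences under the names can lie apart, so the lower share is no result about the separated genes. Among separated genes of at least 2-fold under each name, the differences of Slc35f6, Vipr1, Ggt7 and Ablim1 were among the most alike. Slc35f6, a nucleotide-sugar transporter family member, lay between 66.7 and 76.1 CPM in the shCtrl libraries (median 72.3) and between 30.7 and 34.7 CPM in the shAnxa2 libraries (median 32.6). Its log2 fold change was -1.13 under CTRL and -1.15 under OGDR. Vipr1, a receptor of vasoactive intestinal peptide, was 2.75-fold higher in shAnxa2, and Ggt7 was 2.81-fold lower.

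**Figure D1:**
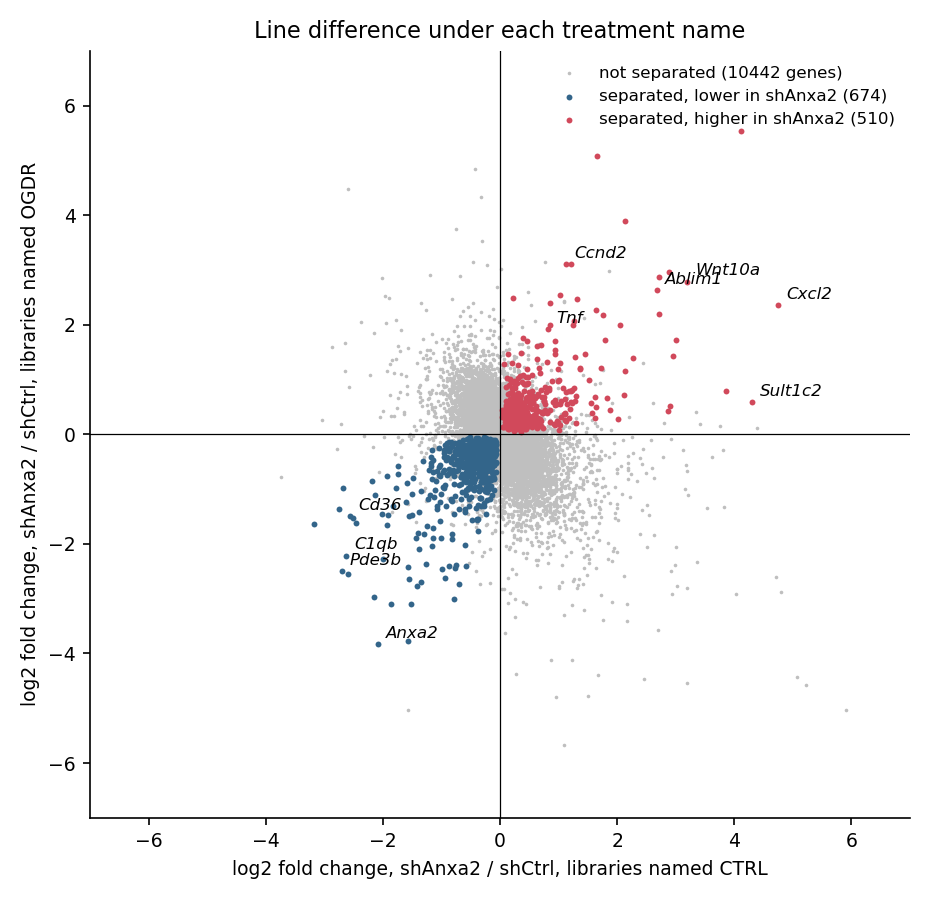
Each point is a gene tested, placed by its log2 fold change of shAnxa2 over shCtrl in the libraries named CTRL (horizontal) and in those named OGDR (vertical). Grey points are the genes whose libraries overlap between the lines, most of which spread from the upper left to the lower right, and the 674 blue and 510 red separated genes lie in the lower left and upper right.

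The targeted gene followed the line names in every library. Anxa2 (ENSMUSG00000032231, chr9:69360902-69399077, plus strand, mm39) had a lowest, median and highest level of 164.5, 213.8 and 294.6 CPM in shCtrl and of 18.2, 27.8 and 44.4 CPM in shAnxa2. The lines did not overlap, and Anxa2 was the gene with the largest decrease among separated genes of at least 1 CPM. In a test on the same values that the rule used, it fell by 2.96 on the log2 scale (SE 0.05, 7.76-fold, adjusted p 9.83e-23, edgeR). Its level differed between treatment names in both lines, as its means under the names CTRL and OGDR were 172 ± 6.36 and 279 ± 24.3 CPM for shCtrl, and 40.4 ± 4.86 and 19.6 ± 1.26 CPM for shAnxa2 (SD, n = 3).

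Of the annexins and their partners, 14 of 17 genes were tested, of which 3 rose and 8 fell (median log2 fold change -0.22, against 0.01 over all genes tested). With line as the only term, 2 rose and 4 fell. Ahnak, the scaffold of the annexin A2 complex, ranged from 189.7 to 389.7 CPM (median 274) in shCtrl and from 110.9 to 152 CPM (median 137) in shAnxa2, 2.04-fold lower. The small calcium-binding protein S100a11, a partner of other annexins, was 1.56-fold lower and separated, at low levels of 1.53 to 4.97 CPM. S100a10 itself was lower by 0.22 (log2, SE 0.06, adjusted p 0.00253, edgeR), but its libraries overlapped between the lines and the adjusted p was 0.179 with line as the only term. Of the plasminogen activation genes, 3 of 7 tested rose and 2 fell (71.4%, against 53.0% of all genes tested). With line as the only term, 1 rose and 0 fell.

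Complement genes held several of the largest decreases. The 3 chains of C1q are encoded side by side on chromosome 4, C1qb at chr4:136607440-136613498, C1qc at chr4:136617115-136620376 and C1qa at chr4:136623228-136626114 (mm39, minus strand). C1qb had a lowest, median and highest level of 42.9, 47.6 and 55.1 CPM in shCtrl and of 6.88, 9.02 and 11.1 CPM in shAnxa2. C1qc had 31, 36.9 and 44.2 CPM in shCtrl and 6.36, 8.78 and 11.7 CPM in shAnxa2. In both genes the highest shAnxa2 library was well under the lowest shCtrl library. C1qb was 5.38-fold lower (log2 -2.43, SE 0.07) and C1qc 4.12-fold lower (log2 -2.04, SE 0.07). C1qa was low in both lines, with 1.13 to 2.76 CPM in shCtrl and 0.05 to 0.68 CPM in shAnxa2, and was 4.16-fold lower with a larger error (log2 -2.06, SE 0.29). Without replicate 3 of shAnxa2 CTRL its log2 fold change was -2.72. Of 17 complement genes tested, 9 fell and 3 rose (median -0.41), and 7 and 0 did so with line as the only term. Over all genes tested, 25.1% fell and 27.9% rose. Of the 17 complement genes, 6 were separated, all lower in shAnxa2, against 5.80% of all genes tested. These 6 included the 3 C1q chains, the C3a receptor C3ar1 (log2 -0.69, SE 0.04) and Itgax, the alpha chain of complement receptor 4 (1.89-fold lower). C3, the central component, was higher on average (log2 0.76, SE 0.05), but it was not separated, and its adjusted p was 0.387 with line as the only term (edgeR).

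To show what lies around the gene starts, complement genes were set beside inflammatory genes that moved the other way. The start regions of the 5 genes C1qb, C1qc, Cxcl2, Il1b and Tnf are printed. Each runs from 250 bases before to 50 bases after the gene start as RefSeq places it on GRCm38.p6, read along the gene's strand. Capitals mark matches, on either strand, of an NF-κB type motif (GGGANNTTC), an ETS type motif (GAGGAA), a C/EBP type motif (TTGCNNAA) and a TATA box (TATAAA).
C1qb: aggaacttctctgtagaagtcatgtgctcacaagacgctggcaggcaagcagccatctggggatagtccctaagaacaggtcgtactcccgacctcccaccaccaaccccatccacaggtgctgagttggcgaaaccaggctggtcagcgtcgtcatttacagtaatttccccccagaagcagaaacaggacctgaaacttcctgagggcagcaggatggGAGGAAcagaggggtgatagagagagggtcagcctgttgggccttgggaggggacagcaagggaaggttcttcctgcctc
C1qc: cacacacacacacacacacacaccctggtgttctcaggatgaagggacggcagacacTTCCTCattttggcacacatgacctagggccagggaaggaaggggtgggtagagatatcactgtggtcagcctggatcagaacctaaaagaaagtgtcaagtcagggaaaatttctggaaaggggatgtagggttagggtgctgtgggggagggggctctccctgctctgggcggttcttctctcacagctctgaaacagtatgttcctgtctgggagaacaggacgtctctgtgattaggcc
Cxcl2: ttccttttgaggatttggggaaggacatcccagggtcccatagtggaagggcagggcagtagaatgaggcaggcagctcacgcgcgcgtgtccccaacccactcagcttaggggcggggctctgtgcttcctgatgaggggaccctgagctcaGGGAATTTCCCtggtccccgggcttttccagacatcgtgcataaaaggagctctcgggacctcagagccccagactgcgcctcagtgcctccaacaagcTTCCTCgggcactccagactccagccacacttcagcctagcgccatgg
Il1b: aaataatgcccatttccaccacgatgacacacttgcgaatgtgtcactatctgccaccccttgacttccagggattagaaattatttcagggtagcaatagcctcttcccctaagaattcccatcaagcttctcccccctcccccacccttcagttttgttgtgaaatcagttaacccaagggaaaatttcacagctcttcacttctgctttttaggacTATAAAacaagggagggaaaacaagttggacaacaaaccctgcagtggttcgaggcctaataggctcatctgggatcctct
Tnf: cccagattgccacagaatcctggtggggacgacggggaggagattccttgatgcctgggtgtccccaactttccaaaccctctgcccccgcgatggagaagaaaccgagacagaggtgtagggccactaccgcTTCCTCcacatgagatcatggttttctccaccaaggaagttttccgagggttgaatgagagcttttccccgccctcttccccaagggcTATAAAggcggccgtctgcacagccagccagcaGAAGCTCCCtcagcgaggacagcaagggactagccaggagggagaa
These regions lie at chr4:136886151-136886450 for C1qb, chr4:136892865-136893164 for C1qc and chr2:129371090-129371389 for Il1b on the minus strand. They lie at chr5:90903649-90903948 for Cxcl2 on the plus strand and at chr17:35201958-35202257 for Tnf on the minus strand. The NF-κB type motif matched in Cxcl2, with overlapping matches on both strands, and in Tnf. The ETS type motif matched in C1qb, C1qc, Cxcl2 and Tnf, and the TATA box in Il1b and Tnf. The NF-κB type match in Tnf began at base 5 after the gene start, and the ETS type match in Cxcl2 at base 3. All other matches lay before the start. No match of 1 motif overlapped a match of another. The C/EBP type motif was not matched in these 5 regions. Over 32851 promoters of the same length, 3.94% held the NF-κB type motif, 28.3% the ETS type, 10.8% the C/EBP type and 13.6% the TATA box. A promoter entry was found for 947 of the 1184 separated genes.

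**Figure D2:**
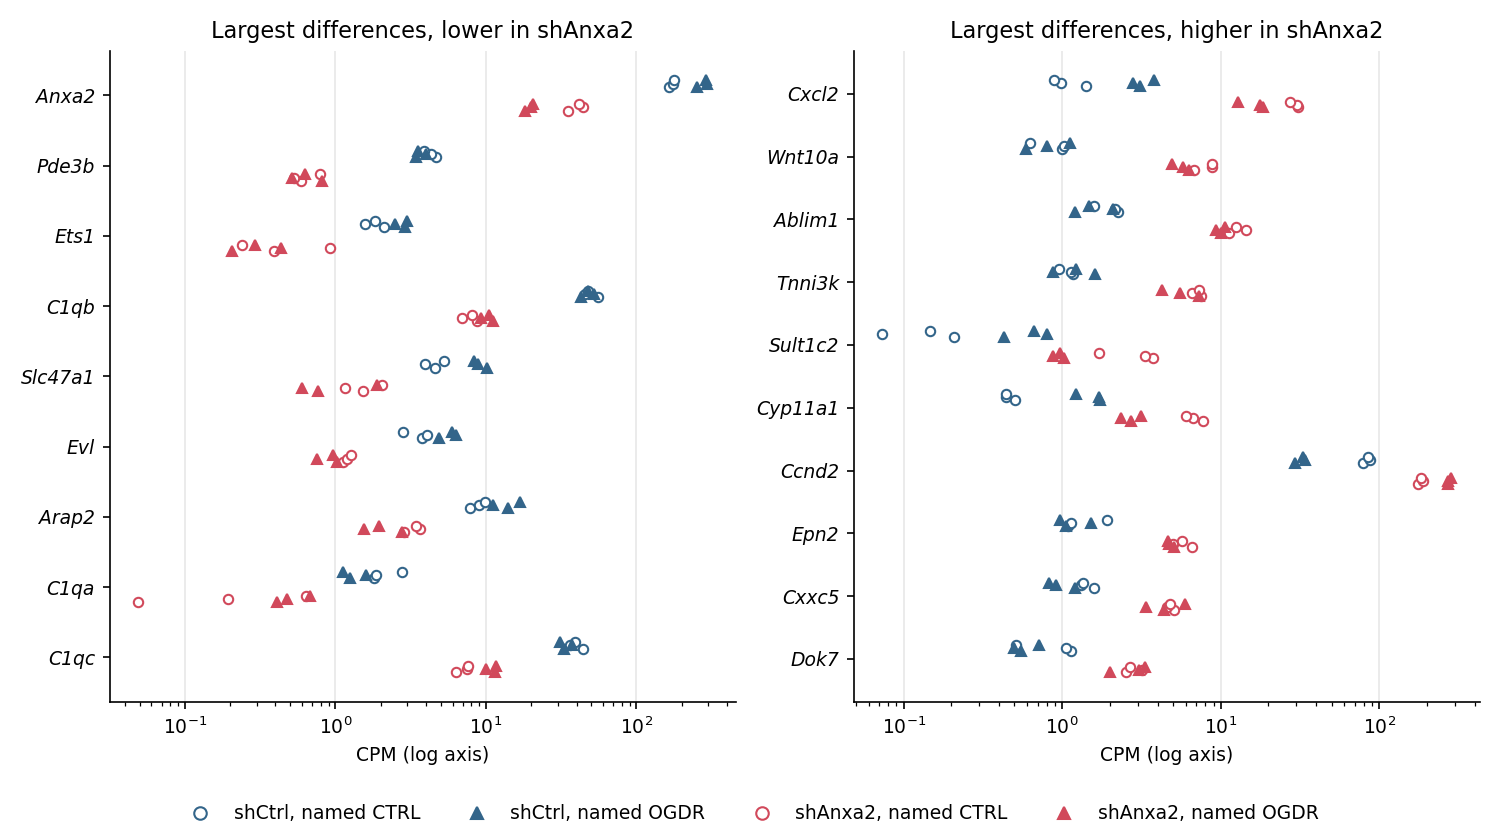
Of the separated genes with the largest differences, 9 lower (left) and 10 higher (right) in shAnxa2 are shown by library, in CPM on a log axis. Blue symbols are shCtrl and red symbols shAnxa2, and open circles are libraries named CTRL and triangles those named OGDR. By the rule that chose these genes, the colours do not overlap in any row.

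Receptors for uptake were mostly lower in shAnxa2. Of 21 Fc, scavenger and phagocytosis receptor genes tested, 14 fell and 2 rose (median -0.23). Over all genes tested, 25.1% fell and 27.9% rose. With line as the only term, 8 fell and 1 rose, against 1027 and 864 of all 11626 genes tested. Cd36, a scavenger receptor and fatty acid transporter, had 49, 71.9 and 100.2 CPM in shCtrl and 13.7, 17.2 and 20.5 CPM in shAnxa2. It was 4.09-fold lower (log2 -2.03, SE 0.07). Msr1, scavenger receptor A, was 3.07-fold lower, from a median of 10.2 CPM (7.86 to 14.3) to 3.24 CPM (2.65 to 4.57). The mannose receptor gene Mrc1 was 1.96-fold lower with almost the same log2 difference under both names, -0.98 under CTRL and -0.97 under OGDR. Mertk, the receptor for apoptotic cells, its bridging ligand Pros1 and the phagocytosis checkpoint receptor Sirpa were also separated and lower (log2 -0.73, -0.69 and -0.42). The inhibitory Fc receptor gene Fcgr2b was the separated member that was higher (log2 0.21). Of 16 lipid efflux and LXR or PPAR genes tested, 11 fell and 4 rose, and 3 and 1 did so with line as the only term.

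Of 24 microglial identity genes tested, 12 fell and 4 rose (median -0.19), and 9 and 1 did so with line as the only term. Aif1, which encodes IBA1, was lower by 0.72 (log2, SE 0.14) and the signalling adaptor gene Tyrobp by 0.42 (SE 0.04). Ptprc (log2 -0.23) and Mef2c (log2 -0.31) were lower and separated as well. Tmem119, a surface marker of resident microglia, went the other way, with 1.41, 3.58 and 4.85 CPM in shCtrl and 5.20, 7.84 and 10.7 CPM in shAnxa2. Its difference was 2.56-fold on average but depended on the name, with log2 values of 0.22 under CTRL and 2.49 under OGDR. Of 18 genes of disease-associated microglia tested, 10 fell and 2 rose, and 5 and 2 did so with line as the only term. The growth factor Igf1 had 162, 178 and 215 CPM in shCtrl and 81.1, 92.3 and 96.1 CPM in shAnxa2, 2.03-fold lower. Cd83 was 1.8-fold lower and the lipase gene Lpl lower by 0.66 (log2, SE 0.04). Cst7, an inhibitor of lysosomal proteases, was 1.69-fold higher and the growth factor gene Csf1 higher by 0.61 (log2, SE 0.03).

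Secreted inflammatory genes were mostly higher in shAnxa2. Of 24 cytokine and chemokine genes tested, 17 rose and 5 fell (median 0.58), and 11 and 2 did so with line as the only term. Cxcl2, a chemokine for neutrophils, had 0.882, 2.10 and 3.79 CPM in shCtrl and 12.8, 23 and 30.6 CPM in shAnxa2. It was the gene with the largest increase among separated genes of at least 1 CPM (11.8-fold, log2 3.56, SE 0.11), and its log2 difference was 4.75 under CTRL and 2.36 under OGDR. Tnf had 25.2, 38 and 52.5 CPM in shCtrl and 80.6, 93.4 and 119 CPM in shAnxa2, 2.58-fold higher (log2 1.36, SE 0.05). Il1b was low, with 0.900 to 3.26 CPM in shCtrl and 3.85 to 7.14 CPM in shAnxa2, 3.09-fold higher. These genes were separated, so by the rule their libraries did not overlap between the lines. The chemokine genes Ccl3 and Ccl4 were separated and higher by 0.54 (SE 0.05) and 0.76 (SE 0.04) on the log2 scale, while Ccl9 was separated and lower by 0.73. The difference of Ccl3 depended on the name, with 1.00 under CTRL and 0.08 under OGDR, whereas Ccl4 had 0.71 and 0.81. Csf3, the granulocyte growth factor, was separated at very low levels, at or under 0.191 CPM in shCtrl and at 0.243 to 1.20 CPM in shAnxa2. It passed the filter on low values through the shAnxa2 libraries alone. Il1r2, the decoy receptor of interleukin 1, was 2.44-fold higher at low levels, with 0.43 to 0.96 CPM in shCtrl and 1.22 to 3.08 CPM in shAnxa2. The chemokine receptor gene Cxcr4 was 1.49-fold higher, with log2 differences of 0.13 under CTRL and 1.03 under OGDR. Of the 25 cytokine and chemokine receptor genes tested, 10 rose and 7 fell, and 4 and 3 did so with line as the only term.

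The separated NF-κB genes were inhibitors. Of 17 subunits and inhibitors tested, 6 rose and 2 fell (median 0.09), and 3 and 0 did so with line as the only term. Nfkbia, which encodes the inhibitor IκBα, had 94.3, 127 and 152 CPM in shCtrl and 218, 235 and 241 CPM in shAnxa2, 1.87-fold higher. Nfkbie, encoding IκBε, was 1.78-fold higher with a log2 difference of 0.84 under each name, and the inhibitory adaptor gene Tnip1 was 1.46-fold higher. The log2 difference of Tnip1 was 0.94 under CTRL and 0.16 under OGDR. The subunit genes Rela (log2 0.10, SE 0.05, adjusted p 0.061) and Nfkb1 (log2 -0.01, SE 0.03, adjusted p 0.84) did not pass the edgeR test. Icam1, an adhesion gene that NF-κB drives, was separated and higher by 0.56 (log2, SE 0.04). Of 23 Toll-like receptor and LPS sensing genes tested, 6 rose and 11 fell, and 1 and 3 did so with line as the only term. Tlr2 was 1.33-fold higher, and Tlr13, which senses bacterial ribosomal RNA, was 1.54-fold lower. Tlr8, which senses RNA in endosomes, was 5.34-fold lower at low levels, from 0.43 to 1.28 CPM to 0.0397 to 0.306 CPM. It passed the filter on low values through the shCtrl libraries, and its log2 fold change was -2.42, or -3.01 without replicate 1 of shAnxa2 CTRL.

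**Figure D3:**
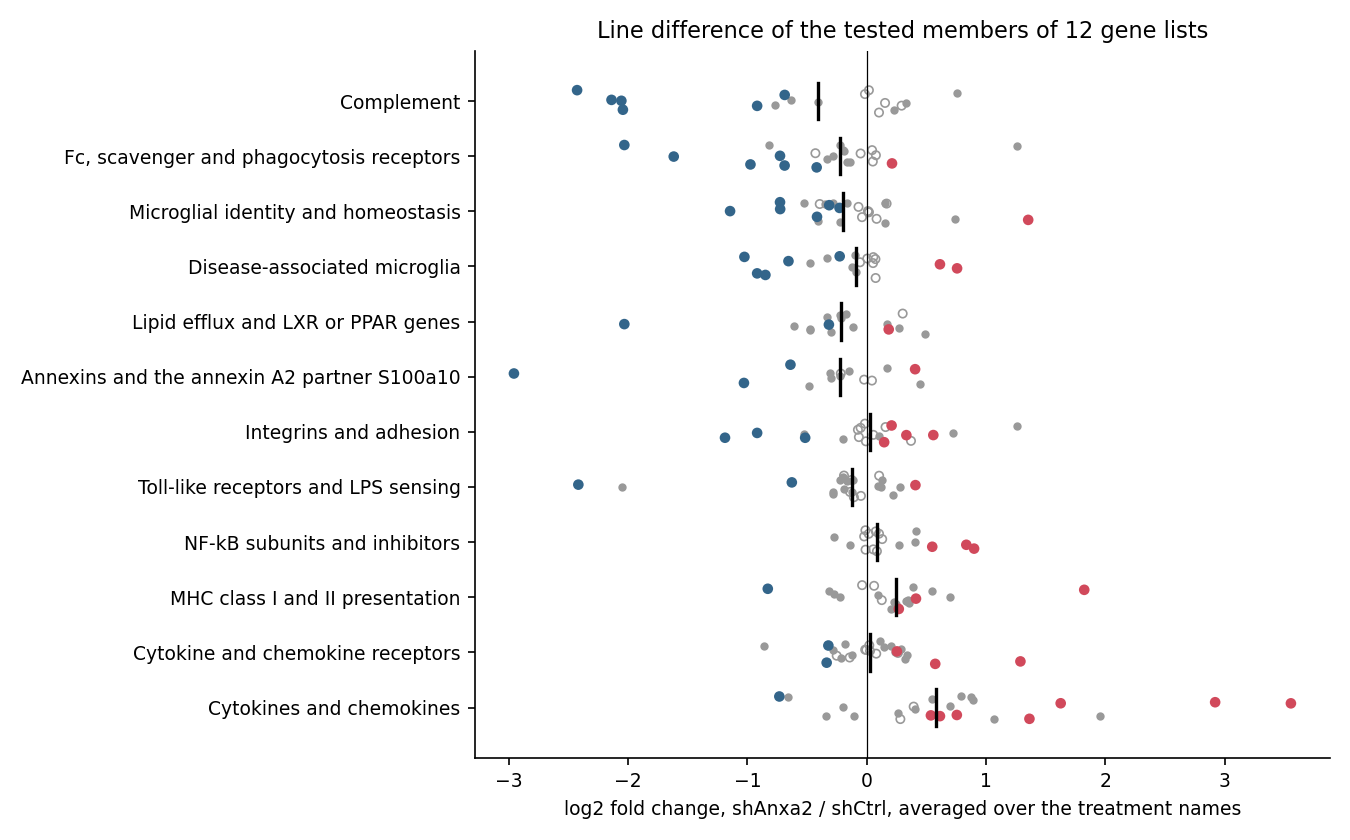
Each point is a tested member of 1 of 12 gene lists, placed by its log2 fold change of shAnxa2 over shCtrl averaged over the treatment names, and the black bar is the median of the list. Blue and red points are separated genes, filled grey points passed the edgeR test with overlapping libraries, and open points did not pass. The medians run from -0.41 for complement to 0.58 for cytokines and chemokines.

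The share of tested members that passed the averaged test was 40% for the metalloproteinase list, 47.1% for the NF-κB list and 53.3% for the interferon list, against 53.0% of all genes tested. For the lists of the plot other than NF-κB it ran from 60% for integrins and adhesion to 93.8% for lipid efflux.

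Among antigen presentation genes, 14 of 21 tested rose and 4 fell (median 0.25), and 5 and 1 did so with line as the only term. Ciita, the class II transactivator, was separated at low levels, with 0.0512 to 0.221 CPM in shCtrl and 0.243 to 0.963 CPM in shAnxa2. It passed the filter on low values through the shAnxa2 libraries alone. H2-DMb1, a peptide exchange factor of class II, was 1.78-fold lower. The classical class I gene H2-K1 rose by 0.55 (log2, SE 0.04) on average, but its libraries overlapped, and the adjusted p was 0.056 with line as the only term. Of 30 genes of interferon response and double-stranded RNA sensing, 9 rose and 7 fell (53.3%, against 53.0% of all genes tested). In the model with line only, 2 rose and 2 fell. Only 1 of the 30 was separated, against 10.2% of all genes tested. It was Usp18, a brake on interferon signalling (1.70-fold higher). Since an shRNA uses the RNA interference machinery of the cell, its 13 genes were counted too. Of these, 4 rose and 6 fell (76.9%, against 53.0% of all genes tested). With line as the only term, 0 rose and 2 fell. Ago1, an Argonaute protein, was 1.71-fold lower (83.2 to 113 CPM against 50.9 to 61.3 CPM), and Tnrc6a, a partner of Argonaute proteins, was 1.34-fold lower.

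Of 20 integrin and adhesion genes tested, 7 rose and 5 fell (60%, against 53.0% of all genes tested), and 5 and 5 did so with line as the only term. Itga6, the laminin receptor chain alpha 6, had 49.6, 56 and 64.8 CPM in shCtrl and 22.6, 25.3 and 26.7 CPM in shAnxa2, 2.28-fold lower. Of 22 actin and membrane linker genes tested, 6 rose and 9 fell (68.2%, against 53.0% of all genes tested). With line as the only term, 3 rose and 2 fell. Myo1e, a membrane-bound myosin, was 1.92-fold lower (213 to 268 CPM against 108 to 137 CPM). Ezr, encoding the linker ezrin, was 1.54-fold higher. Of 10 matrix metalloproteinase and inhibitor genes tested, 2 rose and 2 fell, none was separated, and none passed with line as the only term.

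Of 20 genes of G1 cyclins, Myc and growth tested, 10 rose and 4 fell (70%, against 53.0% of all genes tested). With line as the only term, 1 rose and 1 fell. Only 1 of the 20 was separated, against 10.2% of all genes tested. This gene was Ccnd2, cyclin D2, a driver of entry into the cell cycle. It had 29.4, 56.3 and 86.8 CPM in shCtrl and 175 CPM at the lowest, 228 at the median and 285 at the highest library of shAnxa2, 4.32-fold higher (log2 2.11, SE 0.04). The group means under the names CTRL and OGDR were 83.6 ± 4.29 and 32 ± 2.33 CPM for shCtrl, and 182 ± 6.49 and 276 ± 7.97 CPM for shAnxa2 (SD, n = 3). The highest group of shCtrl was thus under the lowest group of shAnxa2, while the treatment names ran in opposite directions.

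Several of the largest differences were in genes of other functions. The secreted ligand gene Wnt10a had 0.587, 0.902 and 1.13 CPM in shCtrl and 4.90, 6.54 and 8.81 CPM in shAnxa2, 7.97-fold higher. Ablim1, an actin-binding LIM protein, had 1.21, 1.84 and 2.26 CPM against 9.34, 11 and 14.4 CPM, 6.28-fold higher, and its log2 difference was 2.67 under CTRL and 2.63 under OGDR. Tnni3k, a kinase best known from heart muscle, was 5.47-fold higher, Epn2, an endocytic adaptor, 4.05-fold, Cxxc5, a CXXC zinc finger protein, 3.91-fold and Dok7, a docking protein of the MuSK receptor, 3.88-fold higher. The sulfotransferase gene Sult1c2 and Cyp11a1, the first enzyme of steroid synthesis, were 5.45-fold and 5.01-fold higher on average, and their differences shrank under OGDR, to log2 values of 0.59 and 0.78 from 4.30 and 3.87 under CTRL. Among the decreases, Pde3b, a phosphodiesterase of cyclic nucleotides, had 3.44, 3.91 and 4.64 CPM in shCtrl and 0.517, 0.609 and 0.816 CPM in shAnxa2, 6.07-fold lower. Ets1, an ETS transcription factor, was 5.57-fold lower at 0.204 to 0.914 CPM in shAnxa2. The exporter gene Slc47a1, the actin regulator gene Evl and Arap2, a GTPase-activating protein, were 4.97-fold, 4.30-fold and 4.27-fold lower. All of these genes were low in both lines, with at most 16.9 CPM in any library.

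Some list genes passed the averaged test although their difference turned with the treatment name. Lbp, the LPS-binding protein, was lower by 2.05 on average (log2, SE 0.17), with 0.27 under CTRL and -4.37 under OGDR, and its adjusted p was 0.056 with line as the only term. Itgb3, integrin beta 3, had 3.19 and -0.68, Cxcr3, a chemokine receptor, -2.59 and 0.87, and Nfkbiz, an atypical IκB protein, 1.64 and -0.81 under CTRL and OGDR. The adjusted p of these 3 with line as the only term was 0.123, 0.273 and 0.622 (edgeR), and none of the 4 genes was separated.

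The separated genes were not spread evenly over the chromosomes. Chromosome 7 held 135 of the 674 genes lower in shAnxa2 (20%) and 2 of the 510 higher, while it held 895 of the genes tested (7.7%). Of its genes tested, 15.3% were separated, 503 were lower and 52 higher at an adjusted p under 0.05 (edgeR), and 82.3% had a log2 fold change under 0. The median log2 fold change of its genes was -0.20, a level 13.2% lower, with -0.17 under CTRL and -0.23 under OGDR. The median deviation of its genes from their mean over all libraries lay between 0.07 and 0.14 (log2) in the 6 shCtrl libraries and between -0.11 and -0.07 in the 6 shAnxa2 libraries. The lines did not overlap. An exact two-sided permutation test over libraries gave p = 0.00216 (adjusted over 20 chromosomes 0.0048), the smallest p that its 924 splits allow. The lines did not overlap for 8 other chromosomes either, with the same p and smaller differences, so the p does not set chromosome 7 apart. Chromosome 14 had 40 separated genes higher and 4 lower (median 0.12) and chromosome 8 had 55 and 20 (median 0.11), whereas chromosome 3 had 23 higher and 50 lower (median -0.06).

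**Figure D4:**
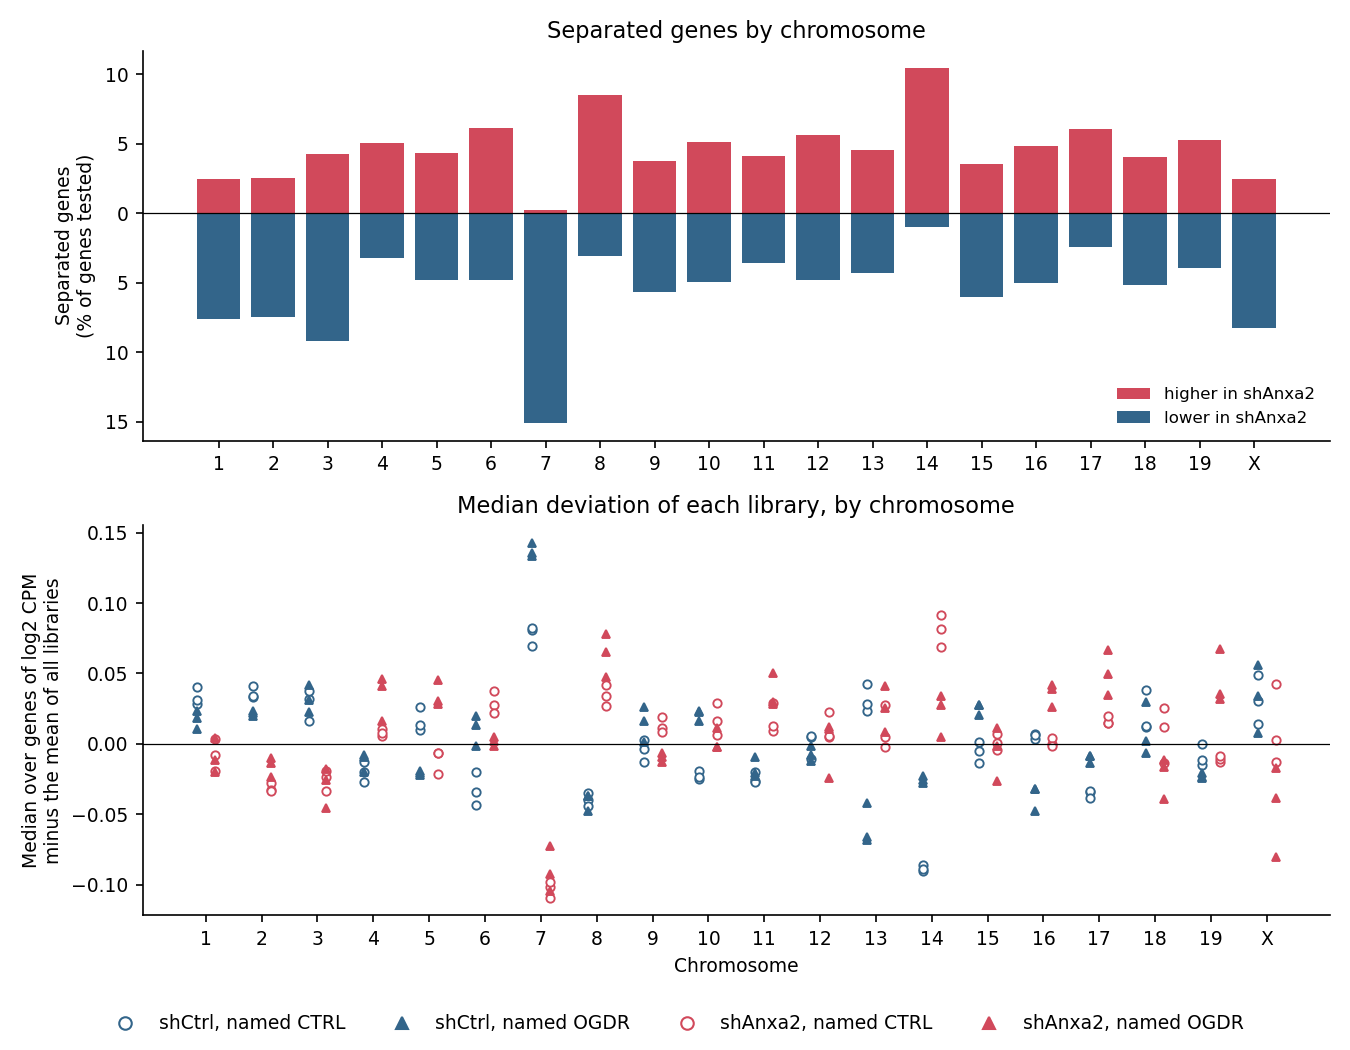
The upper panel gives the share of genes tested on each chromosome that were separated, higher in shAnxa2 upward and lower downward. The lower panel gives, for each library, the median over the genes of a chromosome of log2 CPM minus the mean of all libraries. On chromosome 7 the lower share is 15.1% and the higher share 0.223%, and the 6 blue and 6 red symbols lie farthest apart.

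Averaged over the treatment names, the difference ran along the whole of chromosome 7. In windows of 20 neighbouring genes tested, all 44 averaged medians were under 0, from -0.33 to -0.07. On the other chromosomes, 178 of 527 windows (33.8%) had an averaged median under 0. Taken by treatment name, 39 of the 44 medians were under 0 under CTRL, 42 under OGDR and 37 under both. With windows of 10 genes, 87 of 89 averaged medians were under 0, and with 40 genes, all 22. The 135 separated lower genes there had a median log2 fold change of -0.42, close to the -0.40 of the 539 separated lower genes elsewhere, and 11 of them differed by at least 2-fold. Among the named genes, Pde3b, Itgax, Tnrc6a, Folr1 and Tyrobp were lower and lie on chromosome 7. The 2 genes separated in the other direction were Lat, an adaptor of receptor signalling (log2 0.69, SE 0.11), and Dgat2, an enzyme of triglyceride synthesis (log2 0.42, SE 0.05). Anxa2 is on chromosome 9, whose median was 0.02 and whose libraries overlapped between the lines.

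**Figure D5:**
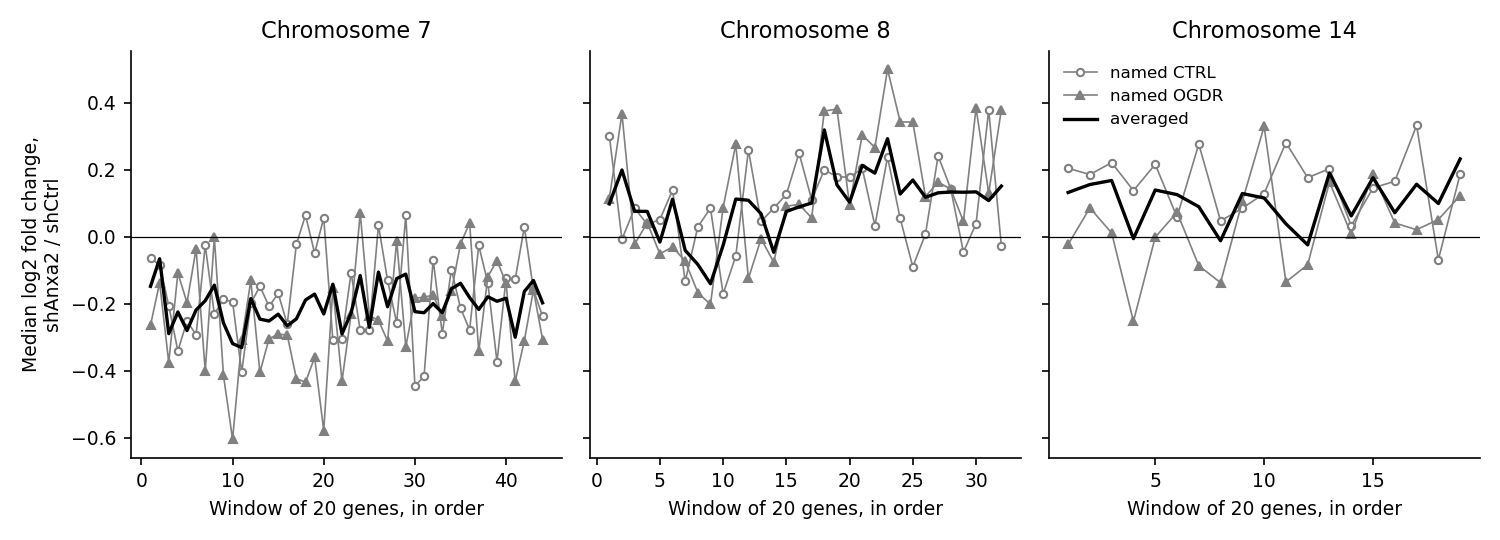
Medians of the log2 fold change of shAnxa2 over shCtrl in consecutive windows of 20 genes tested are shown along chromosomes 7, 8 and 14, averaged (black line) and under each treatment name (open circles for CTRL, triangles for OGDR). On chromosome 7 the black line stays under 0 in all 44 windows, and on chromosomes 8 and 14 it is above 0 in 26 of 32 and 16 of 19 windows.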

How the data were processed

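RNA-seq counts of 12 BV2 libraries were analysed, grouped by the sample names. The cell type field of the labels follows the treatment and contradicts these names, which the Anxa2 counts follow. The authors deposited raw read counts per gene for 21834 protein-coding genes, and the labels' processing notes name HISAT2 2.0.4 and mm39. The methods text names TopHat and HTSeq for hippocampal RNA, whereas the counter and strand setting for these cells are not given in the sources used here, so overlapping and antisense genes may share reads. The 12 columns of normalized values were not used. Of the genes, 5636 had 0 counts in every library, and 4 h of deprivation and 12 h of reoxygenation are the labels' values, while the methods text gives a longer reoxygenation for BV2 cells.

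Genes with at least 0.5 CPM in at least 3 libraries were fitted with edgeR 4.0.16 (TMM, 4 group means, quasi-likelihood test) in R 4.3.3, and the line contrast was averaged over the treatment names, with Benjamini-Hochberg adjustment at 0.05. Standard errors are the log2 fold change divided by the square root of F. CPM values use the TMM library size, and 0.1 was added before log2. The alternatives were median-of-ratios factors, library totals alone, no filter, a filter of 1 CPM, DESeq2 1.42.0, voom of limma 3.58.1, a model with line only, the replicate number as a block, a 1.5-fold limit, other window sizes, and leaving out each library. Replicate counts differed by more than counting error (chi-square per gene 3.96 to 12.9), so each library was kept as a sample of its own. The libraries of a group are called biological replicates by the study, but all come from 1 line per shRNA, and p-values measure the spread between these libraries. Python 3.11.15 with pandas 2.3.3 and matplotlib 3.10.9 was used for tables and plots.

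The genes compared, the lists and the tests were chosen with earlier results of these data known. Named genes are Anxa2, the 10 separated genes per direction with the largest line difference (at least 1 CPM on average, no predicted names), up to 4 called members per list with the largest difference and separated members of at least 2-fold, 2 genes on each side of the separation rule, and 5 with the most alike differences under both names. A few genes that this rule names are not reported here. Other list members, Lat and Dgat2 were named after their values were seen.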

Additional observations from a re-analysis of the deposited data

Results flagged for a closer look

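The difference between shAnxa2 and shCtrl was itself compared between the treatment names by the interaction term of the edgeR model. Of 81 genes named, it differed at an adjusted p under 0.05 for 52, against 70.0% of all genes tested. Many of the named genes were chosen by the separation rule, which limits this difference. The values are log2 differences under OGDR minus those under CTRL, and they take the treatment names as given, under which 98.6% of the genes that changed in both lines changed in opposite directions. They were above 0 for 20 genes and below 0 for 32, and the line differences under the names had opposite signs for 5.

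Anxa2 was lower by a further 1.74 under OGDR (-1.74), and so was its scaffold Ahnak (-1.08), while S100a10 was at 0.33. The decreases of the complement genes C1qa (1.40), C1qc (0.85), C1qb (0.43) and C3ar1 (0.55) were smaller under OGDR. C3 was at -2.84, since it was higher in shAnxa2 under CTRL and lower under OGDR. Likewise the decreases of the scavenger receptors Cd36 (1.08) and Msr1 (1.03), of Lpl (0.61) and Folr1 (1.18) were smaller under OGDR. Those of Mertk (-0.57), Sirpa (-0.41), Igf1 (-0.40), Itgax (-0.77) and Cd83 (-1.23) were larger.

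Among secreted factors, the increase was smaller under OGDR for Cxcl2 (-2.39), Ccl3 (-0.92) and Cst7 (-1.09) and larger for Il1b (1.53), Tnf (1.11) and Csf1 (0.21). It was also larger for the chemokine receptor gene Cxcr4 (0.90) and the adhesion gene Icam1 (0.21). The inhibitor genes Nfkbia (-0.65) and Tnip1 (-0.78) and the atypical IκB gene Nfkbiz (-2.44) were below 0. So were Tlr2 (-0.34), Tlr13 (-0.30), Lbp (-4.64), Usp18 (-0.41), H2-DMb1 (-0.92) and H2-K1 (-0.96). Tmem119 (2.26) and Cxcr3 (3.46) were above 0.

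Of the remaining genes, Ccnd2 (1.99), Tnrc6a (0.49), Itga6 (0.32) and Ezr (0.25) were above 0. Below 0 were Sult1c2 (-3.72), Cyp11a1 (-3.09), Itgb3 (-3.87), Ets1 (-1.23), Slc47a1 (-1.57), Evl (-1.09), Arap2 (-1.35), Ago1 (-0.44), Myo1e (-0.36), Dgat2 (-0.62), Cd200r2 (-1.83) and Zbtb46 (-1.23). The cause of these differences was not tested.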

How the results depend on the processing

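With line as the only term, the counts at an adjusted p under 0.05 moved from 3244 to 864 higher and from 2913 to 1027 lower, since that model counts the difference between treatment names as spread. With a limit of 1.5-fold in place of 2-fold, 354 genes were higher and 441 lower, and without a filter on low counts 177 genes passed the 2-fold limit as higher in place of 113. The other counts over all genes stayed within 1.5 times under every alternative run. Leaving out each library in turn gave 553 to 595 separated genes higher and 704 to 764 lower, a line difference of Anxa2 of -2.99 to -2.91 and a median of chromosome 7 of -0.21 to -0.19. The chromosome 7 values were recomputed by a choice made after seeing the data. The replicate numbers did not pair the libraries, since deviations of libraries with the same number correlated at -0.05 to 0.135 over 18 pairs of libraries, against -0.10 to 0.08 for 36 pairs of different numbers. With the replicate block, 3235 genes were higher and 2899 lower, and the line difference of Anxa2 was -2.96. Of 1617 values of named genes under an alternative, 1604 kept direction and side. The averaged calls of Itgb3, Lbp, Nfkbiz, Cxcr3, H2-K1, C3 and S100a10 were lost with line as the only term. Rela passed without a filter (adjusted p 0.0422, edgeR), without replicate 2 of shCtrl CTRL (0.0338), of shCtrl OGDR (0.0209) or of shAnxa2 OGDR (0.0226). Nfkb1 stayed uncalled, ranged from -0.028 to 0.012 when 1 library was left out, and was above 0 without replicate 1 of shCtrl CTRL or replicate 2 of shCtrl OGDR. Leaving out 1 library (replicate 1 of shCtrl CTRL, 2 of shCtrl OGDR, 3 of shAnxa2 CTRL or 3 of shAnxa2 OGDR) took the cytokine and chemokine genes called lower from 5 to 3. The NF-κB genes called lower went from 2 to 1 without replicate 2 or 3 of shCtrl CTRL, replicate 2 of shCtrl OGDR or of shAnxa2 CTRL, or replicate 3 of shAnxa2 OGDR. The metalloproteinase genes called higher went from 2 to 1 without replicate 3 of shAnxa2 OGDR and to 5 without a filter, and the separated genes of chromosome 7 that were higher from 2 to 5 without replicate 1 of shCtrl CTRL and to 4 without replicate 1 of shCtrl OGDR, 1 or 3 of shAnxa2 CTRL or 2 of shAnxa2 OGDR. Both DESeq2 and voom took the disease-associated genes called higher from 2 to 4. Several of the largest differences rest on genes under 5 CPM, where few counts limit the precision.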
